A study of Rattus norvegicus with 4 samples.

Results

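The RT1 class I genes of the rat were followed across kidneys that had been machine-perfused in the cold, with or without later warm perfusion and with or without low molecular weight heparin or PPS in the perfusate. They were found as the probe sets whose platform annotation gives a symbol beginning RT1-A, RT1-CE, RT1-M, RT1-N, RT1-S or RT1-T. This gave 12 genes of the 14217 on the array, read by 20 probe sets with 1 symbol each. A further 6 probe sets carried several RT1 class I symbols and were kept out of the gene counts. Of the 12 genes, RT1-CE5, RT1-CE10 and RT1-CE12 were chosen for their low values on the heparin array relative to the warm array. Their values in that comparison are therefore given as a description, with no test.

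Class I molecules are heavy chains that pair with beta-2-microglobulin and carry short peptides, made mostly by the proteasome, to the cell surface, where CD8 T cells and natural killer cells read them. In the rat they are encoded in the RT1 complex, the major histocompatibility complex of this species, as a large family of closely related and highly polymorphic genes whose number differs between haplotypes. The RT1-A genes are the classical class I genes, while most genes of the RT1-CE, RT1-M, RT1-N, RT1-S and RT1-T groups are counted as non-classical. Interferons raise class I transcription through conserved promoter elements, and in a kidney graft these molecules are main targets of rejection.

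Each of the 4 groups was represented by 1 Affymetrix array, hybridised with RNA pooled in equal parts from 3 kidneys of male Wistar rats weighing 300 to 480 g. All kidneys were left in the exsanguinated donor for 29 min and were then machine-perfused with University of Wisconsin solution, an organ preservation fluid, in the cold for 3 h. The heparin, PPS and warm groups then received a modified Krebs-Henseleit buffer, warm and oxygenated, for 30 min, and the cold group did not. Perfusates of the heparin group (low molecular weight heparin) and of the PPS group, known from the labels by that abbreviation, held the supplement at 10 IU/ml in both phases. Wistar rats are an outbred stock, the labels give no RT1 type, and the kidneys of a group came from 3 animals. A difference between 2 arrays therefore cannot be told apart from a difference in RT1 genotype between the pooled kidneys. With 1 array per group there was no spread between replicates and no p-value, and the number of arrays limits the precision of every value.

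All values are on the log2 scale. Values under 4.51, the median of the whole file, were raised to that floor for differences and for distances between patterns. A log2 difference of 1 or more, a 2-fold change in signal, is called past the size limit. Levels of different probe sets were used only to choose or order the probe sets of a gene and in summed marker values. Such sums weigh the brightest probe sets most. The arrays had median log2 values of 4.50 (heparin), 4.52 (PPS), 4.54 (warm) and 4.50 (cold). The 24 poly-A spike-in probe sets were higher by a median of 1.25 in warm minus cold, against 0.08 and -0.10 for heparin and PPS over the warm array. All 6 proximal tubule markers (such as Slc34a1 and Lrp2) were above the floor on every array.

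The promoters of RT1-CE5, RT1-CE10, RT1-CE12, RT1-CE16 and RT1-A3 are shown first, because class I promoters are known for conserved control elements. Each sequence is the 250 bases before the annotated start in RefSeq on GRCr8, written 5′ to 3′, and RefSeq held such a window for 11 of the 12 genes, all but RT1-A. Capitals mark 3 motifs searched on both strands. They are GATTCCCC, the core of the NF-kappaB site known as enhancer A, GTTTCACTT, the core of the interferon-stimulated response element, and CCAAT, the box bound by NF-Y. The motifs did not overlap each other in these windows.
RT1-CE5, chr20:3484091-3484340, minus strand: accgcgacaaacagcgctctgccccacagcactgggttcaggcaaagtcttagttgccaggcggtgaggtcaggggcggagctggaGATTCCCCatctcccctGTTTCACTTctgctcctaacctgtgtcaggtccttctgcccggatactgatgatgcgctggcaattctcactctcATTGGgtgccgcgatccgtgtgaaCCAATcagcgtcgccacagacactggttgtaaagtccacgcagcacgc
RT1-CE10, chr20:3384980-3385229, minus strand: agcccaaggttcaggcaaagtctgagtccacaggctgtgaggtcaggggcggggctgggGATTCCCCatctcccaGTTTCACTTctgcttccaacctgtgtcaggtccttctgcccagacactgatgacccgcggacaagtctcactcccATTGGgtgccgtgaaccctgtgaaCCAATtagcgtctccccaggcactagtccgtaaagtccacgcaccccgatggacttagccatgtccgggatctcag
RT1-CE12, chr20:3347226-3347475, minus strand: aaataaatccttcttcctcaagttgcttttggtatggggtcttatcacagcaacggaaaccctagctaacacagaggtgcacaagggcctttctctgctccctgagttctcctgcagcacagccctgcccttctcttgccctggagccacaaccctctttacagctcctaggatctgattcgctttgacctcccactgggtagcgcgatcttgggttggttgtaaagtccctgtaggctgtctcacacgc
RT1-CE16, chr20:3265444-3265693, minus strand: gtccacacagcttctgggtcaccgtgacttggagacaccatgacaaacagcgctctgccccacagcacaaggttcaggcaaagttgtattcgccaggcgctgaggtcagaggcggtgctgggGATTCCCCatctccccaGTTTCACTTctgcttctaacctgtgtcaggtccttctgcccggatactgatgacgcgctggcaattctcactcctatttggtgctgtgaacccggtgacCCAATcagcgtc
RT1-A3, chr20:4849201-4849450, plus strand: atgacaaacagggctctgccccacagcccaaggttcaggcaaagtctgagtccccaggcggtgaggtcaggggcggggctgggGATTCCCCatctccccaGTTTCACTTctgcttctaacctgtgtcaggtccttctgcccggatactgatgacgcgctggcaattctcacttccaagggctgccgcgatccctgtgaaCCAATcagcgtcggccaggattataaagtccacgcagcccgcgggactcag
The windows of RT1-CE5, RT1-CE10, RT1-CE16 and RT1-A3 held all 3 motifs in the same order, and the window of RT1-CE12 held none. Of 33469 promoter windows in RefSeq, 231 held GATTCCCC (0.690%), 115 held GTTTCACTT (0.344%) and 11385 held CCAAT, and 10 windows held all 3. RT1 class I genes made up 8 of these 10, out of 31 RT1 class I windows, so most windows of the family did not hold all 3. Between the 4 windows with the motifs, 85.1% to 90.0% of the aligned bases were identical. The RefSeq gene model of RT1-CE12 also contains RT1-CE13 and RT1-CE14, and that of RT1-CE5 contains RT1-CE6 and RT1-CE7. In RT1-N3 and RT1-M3-1, GTTTCACTT and CCAAT were found without GATTCCCC. A match is a run of letters and no proof of binding.

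RT1-CE10, a class I gene of the RT1-CE cluster, had a log2 value of 6.42 on the heparin array, against 9.38 on the PPS, 9.86 on the warm and 9.41 on the cold array. The heparin array was 10.9-fold below the warm array (log2 difference -3.44) and 7.81-fold below the PPS array. RT1-CE12 had 8.80 on the heparin array, 10.81 on the PPS, 11.24 on the warm and 10.74 on the cold array. Its heparin value was 5.41-fold below the warm and 4.02-fold below the PPS value. RT1-CE5, another gene of the cluster, had 2.97 on the heparin array, 7.05 on the PPS, 7.47 on the warm and 7.88 on the cold array. With the heparin side under the floor, it was at least 7.77-fold lower than on the warm and at least 5.81-fold lower than on the PPS array. By the mean of its 5 probe sets, 3 of them under the floor on every array, RT1-CE5 differed by -0.34 and -0.06 in these comparisons. For each of the 3 genes the heparin value stood alone, while the other 3 arrays lay within 0.83 (RT1-CE5), 0.48 (RT1-CE10) and 0.50 (RT1-CE12) of each other on the log2 scale. In bulk kidney RNA, fewer cells of a type and less RNA per cell cannot be told apart.

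**Figure D1:**
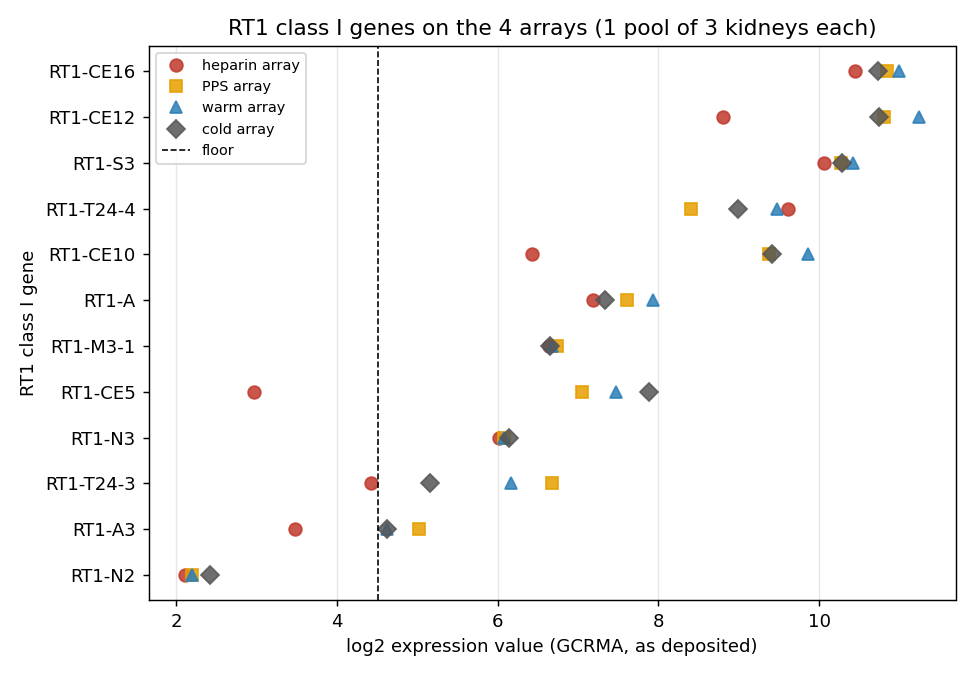
Log2 expression values (horizontal axis) of the 12 RT1 class I genes (vertical axis) on the heparin, PPS, warm and cold arrays, 1 symbol per array and the probe set with the highest mean for each gene; the dashed line is the floor of 4.51. RT1-CE5, RT1-CE10 and RT1-CE12 have the heparin value far left of the other 3, and RT1-CE16, RT1-S3, RT1-M3-1 and RT1-N3 have all 4 values close together.

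The remaining measured gene of the cluster stayed within the size limit. RT1-CE16 had a log2 value of 10.44 on the heparin array, 10.84 on the PPS, 10.99 on the warm and 10.73 on the cold array, a log2 difference of -0.55 in heparin minus warm. RT1-A, the classical class I gene as the platform names it, had 7.19, 7.61, 7.93 and 7.33 on the heparin, PPS, warm and cold arrays, a difference of -0.74. RT1-A3, a further classical gene, had 3.48 on the heparin array, under the floor, and 5.02, 4.62 and 4.62 on the PPS, warm and cold arrays, which lie just above it. Its floored difference of -0.10 in heparin minus warm is a bound, and without the floor it was -1.13.

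Among the non-classical genes, RT1-S3, the counterpart of the mouse Qa-1 gene H2-T23, was read by 4 probe sets above the floor. The probe set with the highest values gave 10.06 on the heparin array, 10.27 on the PPS, 10.42 on the warm and 10.29 on the cold array. All 4 probe sets were lowest on the heparin array among the warm-perfused arrays, with heparin minus warm between -0.85 and -0.37. RT1-M3-1, whose mouse counterpart presents N-formylated peptides, had 6.64 on the heparin, 6.74 on the PPS, 6.67 on the warm and 6.65 on the cold array. RT1-N3 had 6.02, 6.08, 6.08 and 6.14 in the same order. Both thus spanned little, 0.10 and 0.12 on the log2 scale. RT1-N2 was under the floor on all 4 arrays, at 2.11 on the heparin, 2.20 on the PPS, 2.20 on the warm and 2.42 on the cold array.

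The RT1-T24 genes, of the RT1-T group, differed from each other in direction. RT1-T24-3 had a log2 value of 4.42 on the heparin array, just under the floor, against 6.67 on the PPS, 6.16 on the warm and 5.16 on the cold array. It was at least 3.13-fold lower on the heparin than on the warm array and at least 4.45-fold lower than on the PPS array. RT1-T24-4 had 9.61 on the heparin array, 8.41 on the PPS, 9.47 on the warm and 8.99 on the cold array. It was 2.30-fold higher on the heparin than on the PPS array, and 2.08-fold lower on the PPS than on the warm array. Both gene models contain RT1-T24-2 in RefSeq, and the RT1-T24-4 probe set is of a kind (ending _x_at) whose probes can also match other sequences.

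Counted over genes, 11 of the 12 were above the floor on at least 1 array, and RT1-N2 was the other. In heparin minus warm, the comparison that asked what heparin changes in perfused kidneys, 4 of the 11 were lower past the size limit and none higher. Of all 9393 genes above the floor, 1.48% were lower and 0.383% higher by this size, 1.86% in all. Because RT1-CE5, RT1-CE10 and RT1-CE12 were picked on this contrast, nothing is read from that count. The median of the 11 genes was -0.55, and that of all genes 0.00.

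In heparin minus PPS, which sets the supplements against each other in kidneys that both had warm perfusion, 4 of the 11 genes were lower and 1 higher past the size limit. The lower ones were RT1-CE5, RT1-CE10, RT1-CE12 and RT1-T24-3, and the higher one was RT1-T24-4. Of all genes, 0.298% were lower and 0.192% higher past the limit, 0.490% in all. The median of the 11 genes was -0.41, beside 0.01 over all genes. The heparin array enters this comparison as well as the one used to choose the genes, so the counts are not independent. In heparin minus cold, 3 of the 11 were lower past the limit, namely RT1-CE5 (at least 10.3-fold), RT1-CE10 (7.97-fold) and RT1-CE12 (3.83-fold), beside 0.916% of all genes lower and 1.17% higher, 2.09% in all.

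Of the 11 genes, 10 had their lowest value on the heparin array, and RT1-T24-4 had it on the PPS array. Over all genes, 19.9% had their lowest value on the heparin array. Of the 10, RT1-CE5, RT1-CE10 and RT1-CE12 were chosen for low heparin values, and RT1-M3-1 and RT1-N3 were lowest there by only 0.01 and 0.06, so nothing is read from the count. Genes on the heparin array below each of the other 3 arrays by the size limit numbered 10 in all, which is 0.106% of genes. RT1-CE10, RT1-CE5 and RT1-CE12 were 3 of these 10, which restates how they were chosen. The other genes of the 10 were the kallikrein Klk1c4, the kinase Dapk2, the peroxisomal membrane protein Pxmp4, the aldo-keto reductase Akr1b10, the carbonic anhydrase Car3, the organic anion transporter Slc22a7 and Aebp1. They were named after their values were seen. The PPS array stood below the others in this way for 0.0319% of genes, the warm array for 0.128% and the cold array for 0.681%, with 0 class I genes among them.

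In PPS minus warm, the same question for the other supplement, 1 of the 11 genes passed the size limit, RT1-T24-4 (log2 difference -1.06), beside 1.71% of all genes lower and 0.511% higher, 2.23% in all. RT1-CE5 (-0.42), RT1-CE10 (-0.48) and RT1-CE12 (-0.43) were each lower by less than the limit, and RT1-T24-3 was at 0.51. The median of the 11 was -0.15.

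In warm minus cold, which asked what warm perfusion adds, 8 of the 11 genes were higher and 2 lower, with a median of 0.26, beside a median of 0.00 over all genes. Scaled to the poly-A controls, the overall median became -1.13 and 4 class I genes were past the limit, all lower, so the direction depends on the scaling. The gene past the limit was RT1-T24-3, with log2 values of 6.16 on the warm and 5.16 on the cold array, a difference of 1.00 that sits at the limit. Of all genes, 2.48% were higher and 1.16% lower past it, 3.64% in all. RT1-A (0.60), RT1-CE12 (0.50), RT1-T24-4 (0.47), RT1-CE10 (0.45) and RT1-CE16 (0.26) were higher by less, and RT1-CE5 was at -0.41. The gap between the 3′ and 5′ probe sets of beta-actin, a sign of RNA quality, was 3.22 on the warm and 2.79 on the cold array. It was 3.39 on the heparin array, the largest, and 3.19 on the PPS array. For GAPDH, another control gene, the gap was 0.72 on the heparin, 0.81 on the PPS, 0.84 on the warm and 0.60 on the cold array. The part of RNA quality in the class I values was not tested. In PPS minus cold, RT1-T24-3 was 2.84-fold higher and the other 10 genes stayed within the limit. Of all genes, 1.03% passed it upward and 0.788% downward, 1.82% in all. Poly-A controls were higher by a median of 1.10 in that comparison, and values scaled to them were not made for either supplement against the cold array.

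The single probe sets show how far these values depend on the sequence that was probed. Of the 20 probe sets with 1 symbol, 15 were above the floor on at least 1 array and 5 were under it on all. In heparin minus warm 14 of the 15 were lower, 5 of them past the limit, beside 1.41% of 15790 probe sets in all. In heparin minus PPS 14 of the 15 were lower as well, again 5 past the limit, beside 0.393% of all probe sets. In both comparisons 4 of the 5 belong to RT1-CE5, RT1-CE10 and RT1-CE12, so these counts too carry the choice of genes. RT1-CE5 had 5 probe sets, of which 2 were measured. The dimmer of these had log2 values of 3.98 on the heparin array, 6.21 on the PPS, 6.88 on the warm and 6.20 on the cold array, so both measured probe sets were under the floor on the heparin array. The dimmer one ends in _x_at, a kind that can hold probes shared with other family members. Both are annotated to the same source sequence, so they are not independent readings. The other 3 probe sets of RT1-CE5 were under the floor on every array and say nothing of a difference. Among them, 1 is annotated to that same source sequence and was at 2.11, the lowest value in the file, on all 4 arrays. RT1-CE10, RT1-CE12 and RT1-CE16 were each read by 1 probe set ending _x_at, which can hold probes shared with other family members, so their values are uncertain as to the gene.

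The probe sets with several symbols included 2 above the floor. The probe set for RT1-A3 and RT1-A2 had a log2 value of 2.93 on the heparin array, against 12.36 on the PPS, 12.65 on the warm and 11.77 on the cold array. It was at least 281-fold lower on the heparin than on the warm array and at least 230-fold lower than on the PPS array. In both comparisons this was the first of 15790 probe sets by size of a lower value. The probe set shared by RT1-A, RT1-CE5, RT1-CE7, RT1-CE11 and RT1-CE13 had 7.33 on the heparin array, 7.67 on the PPS, 8.74 on the warm and 7.65 on the cold array. Here the warm array stood above the other 3. The remaining 4 such probe sets were under the floor on all arrays.

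**Figure D2:**
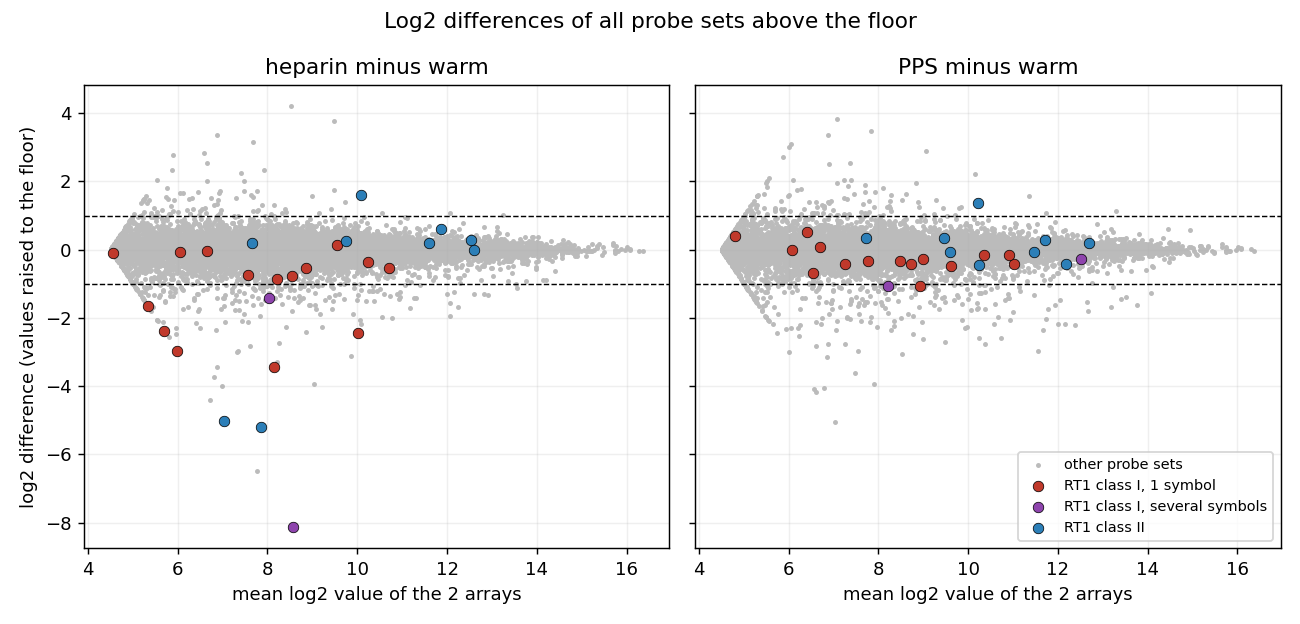
Log2 difference (vertical axis, values raised to the floor) against the mean log2 value of both arrays (horizontal axis) for all 15790 probe sets above the floor, for heparin (left) and PPS (right) against the warm array; dashed lines mark the size limit. Coloured points are RT1 probe sets. In heparin minus warm the probe set for RT1-A3 and RT1-A2 lies lowest of all, at -8.13, and in PPS minus warm it lies at -0.28.

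Class II genes of the same complex, which present peptides to CD4 T cells, also differed by probe set. RT1-Ba, a class II alpha chain, had log2 values of 5.28 on the heparin array, 10.01 on the PPS, 10.46 on the warm and 9.62 on the cold array by 1 probe set. Its brightest probe set had 12.17 on the heparin, 11.86 on the PPS, 11.57 on the warm and 11.74 on the cold array. RT1-Ba was thus 36.3-fold lower on the heparin than on the warm array by the dimmer probe set and 1.51-fold higher by the brightest probe set. RT1-Bb, the matching beta chain, was likewise at 2.61 on the heparin array by 1 probe set, against 10.90, 9.54 and 7.97 on the PPS, warm and cold arrays. By its other probe set it was at 12.66 on the heparin, 11.96 on the PPS, 12.39 on the warm and 12.50 on the cold array. RT1-Db1 was at 10.89 on the heparin, 9.63 on the PPS, 9.29 on the warm and 9.20 on the cold array by 1 probe set, and its other probe set differed by 0.19 in heparin minus warm. Probe sets of 1 gene that part in this way were thus seen on the heparin array for all 3 of these class II genes, and their cause was not tested. The probe sets of RT1-Ba and RT1-Bb ranked 3 and 4 by size among lower probe sets in heparin minus warm. A probe set of Mx2, an interferon-induced GTPase, ranked 2, with 3.60 on the heparin, 9.76 on the PPS, 11.0 on the warm and 2.78 on the cold array.

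Genes that neighbour the class I genes were set beside them. Between RT1-M2 and RT1-A1 in the assembly order, 83 genes with 1 symbol were above the floor, of which 67 were not RT1 genes. In heparin minus PPS, 0 of these 67 passed the size limit, near the 0.490% of all genes that did, so nothing is read from that count. The 5 class I genes past it, given above, include RT1-CE5, RT1-CE10 and RT1-CE12, which were chosen for low heparin values. In heparin minus warm 3 of the 67 (4.48%) passed the limit, beside 1.86% of all genes. All 3 were lower: Ier3 (-1.31), Ppp1r10 (-1.02) and the heat shock gene Hspa1a (-1.12). Ier3 and Hspa1a are stress-induced and were also lower in PPS minus warm, at -1.74 and -1.43. RT1-CE16, RT1-CE12, RT1-CE10 and RT1-CE5 were the 4 measured class I genes of the RT1-CE cluster, and they follow each other in that order. The first of them, RT1-CE16, lay within the limit. Tcf19 before the cluster and Ddx39b after it were at 0.23 and -0.22 in heparin minus warm.

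**Figure D3:**
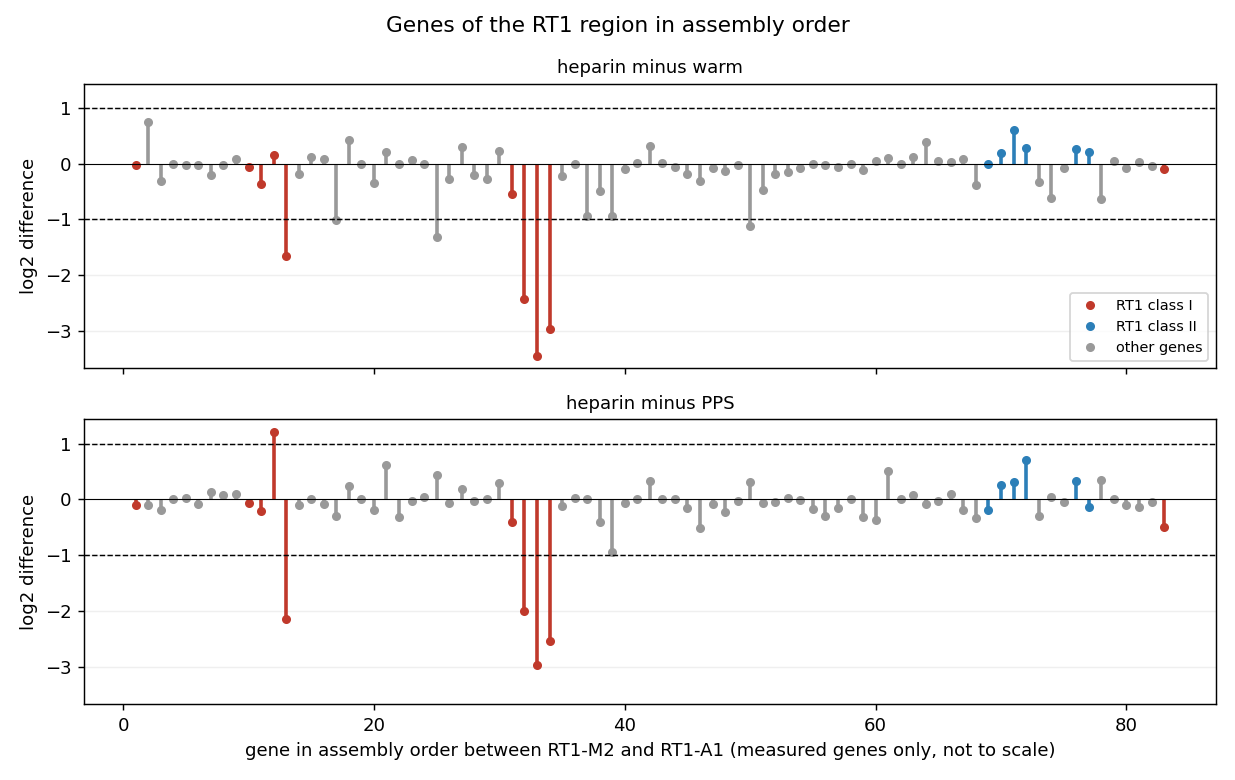
Log2 difference (vertical axis) of the 83 measured genes between RT1-M2 and RT1-A1, in assembly order (horizontal axis, not to scale), in heparin minus warm (top) and heparin minus PPS (bottom), with dashed lines at the size limit. RT1-CE12, RT1-CE10 and RT1-CE5 stand next to each other and reach -2.43, -3.44 and -2.96 in the top panel, and RT1-T24-3 reaches -2.15 in the bottom panel.

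Genes for the partners of class I molecules stayed within the size limit. B2m, the light chain of all class I molecules, had log2 values of 14.61 on the heparin array, 14.58 on the PPS, 14.65 on the warm and 14.65 on the cold array. Tap1, a subunit of the peptide transporter, was at 7.16, 7.12, 7.77 and 6.98 on the heparin, PPS, warm and cold arrays. Tap1 was thus highest on the warm array, with the supplements within 0.04 of each other. Tapbp, which encodes the loading factor tapasin, was between 5.67 and 5.70 on all arrays, and Tap2 was under the floor throughout. Of 8 measured genes of the light chain and peptide loading list, none passed the limit in any of the 6 comparisons. The median of the 8 was 0.00 for heparin and -0.10 for PPS against the warm array. The 7 measured proteasome genes stayed within the limit too. Only 0.490% to 3.64% of all genes passed it, depending on the comparison, so nothing is read from counts of 0 in lists this short. Of the 7 proteasome genes, Psmb8, an immunoproteasome subunit, differed from the warm array by -0.33 for heparin and -0.04 for PPS. Psmb9, another such subunit, differed by -0.08 and -0.04.

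Regulators and targets of interferon were set beside the class I genes. Nlrc5, the transactivator of class I genes, was under the floor on all 4 arrays. Of 21 measured regulators, Irf1, an interferon-induced activator of class I promoters, was the gene past the limit in heparin minus warm (-2.05), PPS minus warm (-2.28) and warm minus cold (3.49). This was 4.76% of the list each time, beside 1.86%, 2.23% and 3.64% of all genes. The log2 value of Irf1 was 9.03 on the heparin, 8.80 on the PPS, 11.08 on the warm and 7.59 on the cold array. Against the cold array 2 of the 21 passed the limit for each supplement (9.52%), beside 2.09% of all genes for heparin and 1.82% for PPS. Creb1, which binds class I promoters, was at -1.03 for heparin and -1.22 for PPS, and Irf1 at 1.44 and 1.21. Poly-A controls were higher by a median of 1.28 and 1.10 there, and values scaled to them were not made. Of 17 measured interferon-stimulated genes, 4 were lower past the limit on the heparin than on the warm array, beside 1.48% of all genes. On the PPS array 6 were lower past it than on the warm array, beside 1.71%. On the warm array 6 were higher past it than on the cold array, beside 2.48%. Medians of the 17 were -0.62, -0.73 and 0.80 in these comparisons, and those of all genes 0.00. Poly-A scaling, which moved the overall median of warm minus cold to -1.13, was not applied to this list. Those past the limit for both supplements included Cxcl10, a chemokine (-3.30 against the warm array for heparin, -3.93 for PPS), the oligoadenylate synthetase-like Oasl (-2.96 and -4.06) and the ubiquitin-like Isg15 (-1.37 and -1.85). Ifit3 was measured on the warm array alone, at 6.05, so its differences of -1.54 are bounds. Ifit2 was at -0.99 and -1.12, and Oas1a at -0.62 and -1.25. For heparin against PPS, 1 of the 17 was past the limit at the brightest probe set, beside 0.490% of all genes. It was Oasl, which was higher by 1.10. The Mx2 probe set named above, not the brightest of that gene, was lower there, at -5.25. Against the warm array, 16 of the 17 interferon-stimulated genes were lower by any size with heparin and all 17 with PPS, beside medians of 0.00 over all genes.

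**Figure D4:**
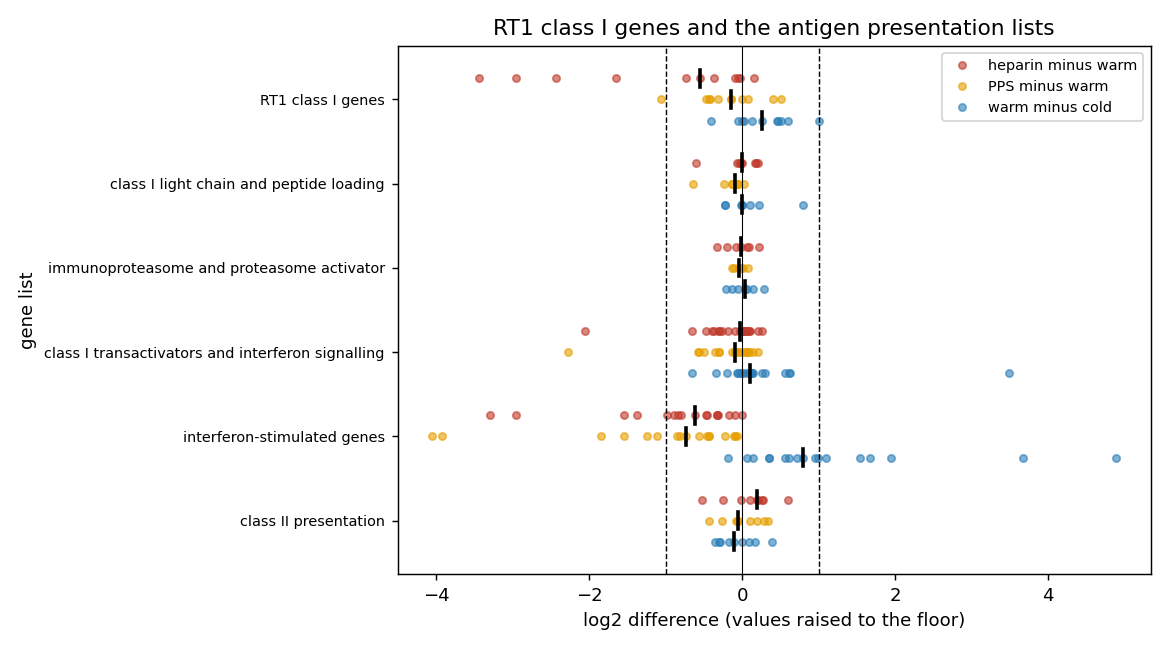
Log2 differences (horizontal axis, values raised to the floor) of each measured gene in 6 lists (vertical axis), coloured by comparison (heparin or PPS minus warm, and warm minus cold), 1 point per gene, with the median as a black bar and dashed lines at the size limit. The RT1 class I genes have 4 points left of the limit for heparin and 1 for PPS, and the peptide loading and proteasome lists have none. The 4 include RT1-CE5, RT1-CE10 and RT1-CE12, which were chosen for low heparin values.

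Class I-like genes outside the complex were few. Of 4 measured ones, Azgp1, a zinc-binding class I-like glycoprotein, passed the limit in PPS minus warm (-1.52) and was at -0.95 in heparin minus warm. Fcgrt, the neonatal Fc receptor, was at 0.09 in heparin minus warm and Cd1d1, a lipid-presenting molecule, at -0.07. Of 9 measured genes of class II presentation, taken at the probe set with the highest mean, none passed the limit in these comparisons. Of all genes, 1.86% passed it for heparin and 2.23% for PPS against the warm array, so nothing is read from that count. Cd74, the invariant chain, was at 13.72 on the heparin, 14.16 on the PPS, 14.24 on the warm and 14.07 on the cold array. Ciita, the class II transactivator, was under the floor.

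Markers of leukocytes, which carry much class I RNA, differed by less than the limit beside these values. All 4 leukocyte markers were lower in heparin minus warm, with a median of -0.32, and Ptprc, which encodes CD45, had 8.78, 8.94, 9.24 and 9.0 on the heparin, PPS, warm and cold arrays. The summed linear value of these 4 markers was 1208 on the heparin, 1452 on the PPS, 1541 on the warm and 1254 on the cold array. Of 8 macrophage and dendritic cell markers, 4 were above the floor, all lower in heparin minus warm (median -0.37), and Cd68, Itgam, Cd163 and Mrc1 were under it. The summed value of these 8 was 1346 on the heparin, 1712 on the PPS, 1830 on the warm and 1345 on the cold array, so the heparin and cold arrays were nearly alike. Endothelial markers, 7 measured, had a median of -0.23 in heparin minus warm, with 6 lower, 1 higher and none past the limit. In heparin minus cold 5 were higher and 2 lower, with a median of 0.10. There Vwf was past the limit at -1.59, beside 0.916% of all genes lower. It was at -0.64 in heparin minus warm and in heparin minus PPS. Of 9 T and natural killer cell markers, Cd3e, a chain of the T cell receptor complex, was above the floor, at 5.18 on the heparin, 5.36 on the PPS, 5.31 on the warm and 5.31 on the cold array. The other 8 and both B cell markers, Cd79b and Ms4a1, were under the floor on every array, as were 5 of 6 receptors of class I on the array, all but Lilrb4 (-1.03 in PPS minus cold). Hbb, a haemoglobin gene of red blood cells, had 8.20, 9.22, 8.71 and 9.85 on the heparin, PPS, warm and cold arrays. Smooth muscle, pericyte and fibroblast markers numbered 7, with medians of 0.56 for heparin and 0.79 for PPS against the warm array. For each supplement 6 of the 7 were higher, and Acta2 was lower (-0.21 for heparin, -0.01 for PPS). With PPS 3 were higher past the limit, beside 0.511% of all genes, and with heparin none. The collagen gene Col1a1 had the largest difference of the 7 for each supplement. It had 7.75, 8.79, 7.08 and 8.38 on the heparin, PPS, warm and cold arrays. The part of these cells in the class I values was not tested.

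Genes with the most similar pattern were sought by the root mean square distance of floored values, after each gene's mean was removed. The search covered 4 arrays and 489 other genes that spanned at least 1 on the log2 scale. On the heparin array RT1-CE5 entered at the floor of 4.51, not at its value of 2.97. Its distances therefore depend on the floor. For RT1-CE10 the nearest were RT1-CE5 (0.35), RT1-CE12 (0.44), Dapk2 (0.60), Pxmp4 (0.61) and Car3 (0.73). For RT1-CE5 they were Dapk2 (0.28), RT1-CE10 (0.35), Pxmp4 (0.39), RT1-CE12 (0.51) and Car3 (0.53). For RT1-CE12 the nearest was Slc22a7 (0.40), followed by RT1-CE10 (0.44), Pxmp4 (0.46), Car3 (0.48) and the fatty acid-binding protein Fabp4 (0.51). Dapk2, for example, had log2 values of 5.83 on the heparin, 8.16 on the PPS, 8.82 on the warm and 9.76 on the cold array. Over 4 arrays such likeness is a description of these pools and carries no test.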

How the data were processed

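The deposited values are log2 signals of Affymetrix probe sets. The authors made them with GCRMA, which corrects background by probe sequence, normalizes the arrays to each other and summarises probes, per the submitters' processing notes. A version was not given in the sources used here. That the scale is log2 was judged by the range, 2.11 to 16.4. GCRMA gives all arrays nearly the same distribution, so a change in total messenger RNA would not be seen.

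Of 31099 probe sets, 57 controls, 436 with several symbols and 9780 without a symbol were kept out of the gene table. Symbols were updated by Entrez identifier through RefSeq (GRCr8), which held 20758 of the 20826 probe sets with 1 symbol. For each of 14217 genes the probe set with the highest mean was used. Values under the 50th percentile of the file, 4.51, were raised to it, and the 9393 genes above it on at least 1 array were analysed with Python 3.11.15, pandas 2.3.3 and Biopython 1.88. Members, lists and the rule for named genes were chosen with earlier results of these data known. That rule names all RT1 class I genes, up to 6 genes past the limit per list, a fixed set of antigen presentation genes and the 5 nearest patterns. Alternatives were other floors, filters, probe set choices, scalings and size limits.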

Additional observations from a re-analysis of the deposited data

Results flagged for a closer look

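These probe sets stood outside the gene counts, because they carried several symbols or were not the brightest of their gene, and passed the size limit in at least 1 comparison. The RT1-A3 and RT1-A2 probe set differed by -8.13 in heparin minus warm and -7.85 in heparin minus PPS. The second measured probe set of RT1-CE5 differed by -2.37 and -1.69 in the same comparisons. The probe set shared by RT1-A, RT1-CE5, RT1-CE7, RT1-CE11 and RT1-CE13 differed by -1.41 for heparin and -1.07 for PPS against the warm array, and by 1.09 in warm minus cold. Among class II probe sets, the dimmer measured one of RT1-Ba differed by -5.18 in heparin minus warm and -4.74 in heparin minus PPS. For the dimmer one of RT1-Bb the differences were -5.02 in heparin minus warm, -6.38 in heparin minus PPS, 1.36 in PPS minus warm and 1.56 in warm minus cold. For the dimmer one of RT1-Db1 they were 1.60 in heparin minus warm and 1.26 in heparin minus PPS.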

How the results depend on the processing

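RT1-CE10, RT1-CE12 and RT1-T24-3 stayed past the size limit and lower in heparin minus warm and heparin minus PPS under both other floors, without the filter, with several-symbol probe sets kept, with the mean of probe sets and under both scalings. Most of these settings could not move them. Each gene is read by 1 probe set, so the mean, the filter and the kept probe sets leave its value unchanged. RT1-CE10 and RT1-CE12 were above the floor on every array, so only the scalings could move their values. A lower floor could only widen the difference of RT1-T24-3. RT1-CE5 did so except with the mean of its probe sets, which includes 3 under the floor and gave -0.34 and -0.06. Without the floor, or with it at the 25th percentile, RT1-CE5 was at -4.50 in heparin minus warm and RT1-A3 passed the limit at -1.13. In all, 310 of 332 single values and medians moved by less than the SD over genes of that comparison and 22 by more. Values that a setting could not move are counted among the 310. The sign changed in 10 of the 332, 9 of them under poly-A scaling in warm minus cold, and the other in RT1-CE5 by the mean of its probe sets (0.03 in warm minus cold, in place of -0.41). Scaling to the poly-A controls turned RT1-T24-3 in warm minus cold to -0.13, shifted the overall median of that comparison to -1.13 and gave 4 class I genes past the limit in it, all lower, and 0 in PPS minus warm. Under it 6707 genes passed the limit in warm minus cold, 71 higher and 6636 lower, in place of 233 higher and 109 lower. In heparin minus PPS the split became 9 higher and 52 lower, in place of 18 and 28, with a median of -0.19. Scaling to the median of all genes left 0 class I genes past the limit in warm minus cold. With several-symbol probe sets kept, 2 class I entries passed in warm minus cold and 2 in PPS minus warm. At a limit of 1.5-fold, 2 class I genes passed in warm minus cold, and of all genes 526 passed for heparin and 517 for PPS against the warm array, 252 in heparin minus PPS and 1020 in warm minus cold. At 4-fold these were 25, 43, 11 and 82, with 0 class I genes in warm minus cold and 0 in PPS minus warm. No paired analysis was possible because each group has 1 array.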
